A study of Mus musculus with 4 samples.

Results

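The transcripts examined here are those of 37 lysosomal genes, given by name, of the 19491 genes listed in any of the 4 deposited matrices. All 37 were listed in every library. They fall into 11 cathepsins and other proteases, 10 glycosidases and other hydrolases with their cofactors, 10 membrane proteins and transporters including the transcription factor Tfeb, and 6 components of the proton pump. Their levels were read per library in classes of immune cells that were set by marker genes.

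CD45+ hematopoietic cells of C57BL/6J mice aged 8 weeks were sorted by FACS from brain or dura mater and sequenced on the 10x Chromium platform. The labels name 4 libraries, with 1 library in each group. CT_brain and CT_dura are the controls, taken here as the sham operation of the study, and INJ_brain and INJ_dura were collected on day 3 after photothrombotic injury, in which light activates the dye Rose Bengal and vessels are closed by thrombi. The sources used here do not give the number of mice pooled in a library.

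With 1 library per group no test between conditions was possible, and no p-value is given. Levels are UMIs, each standing for 1 captured mRNA molecule, added up within a class and given per 1000000 UMIs of that class (CPM). The 3′ chemistry gives 1 tag per molecule, so levels of different genes are not scaled by length. Each ratio is a log2 ratio of CPM, and the range beside it is its exact 95% interval for counting error only. A difference between mice, dissections or library preparations is in none of these intervals, and in every injury comparison the condition and the library cannot be told apart.

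Kept cells numbered 3606 in CT_brain, 3432 in CT_dura, 4383 in INJ_brain and 2593 in INJ_dura, with a median of 8242 to 14118 UMIs per cell. Of them, 81.7% to 89.0% were assigned to a class of any marker list, and 17 of these classes were followed here. Ptprc, which encodes CD45, was seen in 63.1% to 100% of the cells of each class, and each marker gene of a class was seen in at least 10% of its cells, except 1 of 7 in infiltrating macrophage-like cells and 1 of 7 in group 2 innate lymphoid-like cells of both control libraries. A class cut from a score is a range and not a type, and 0 to 8% of its cells lay within 0.05 of the cut. The median score of infiltrating cells was 0.654 on their own list and 0.107 on the next, and that of microglia-like cells was 0.856 and 0.374 in CT_brain and 0.731 and 0.280 in INJ_brain. Libraries shared 3 to 11 cell barcodes per pair, at most 0.229% of the smaller library. The upper limit of 6000 detected genes removed 511 barcodes of INJ_brain against 98 of CT_brain.

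Lysosomes are acidic organelles in which material taken up by endocytosis, phagocytosis or autophagy is broken down. Soluble hydrolases are delivered to them and work at a low pH that the V-ATPase proton pump maintains, while heavily glycosylated membrane proteins line the limiting membrane and transporters return products to the cytosol. Macrophages and microglia are the professional phagocytes of the dura and the brain, and Tfeb is known to drive many lysosomal genes through a short sequence in their promoters.

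That sequence, the letters TCACGTGA, is its own reverse complement and contains the E-box CACGTG. It was searched in RefSeq promoter windows of GRCm38.p6 running from 250 bases before to 50 after a gene's start. Of the 37 genes, 31 matched a window, and 6 of these 31 (19.4%) held the 8 letters, against 304 of 27025 genes (1.12%). The 6-letter E-box stood in 10 of 31 (32.3%), against 2187 of 27025 genes (8.09%). Ctsh, Ctsb, Asah1, Npc1, Atp6v1b2 and Atp6v0d2 had no entry in the window table. Stretches around sites that lie before the start are shown for 5 genes that return below, 5′ to 3′ on the strand of the gene, with the 8 letters in capitals.
Ctsd, chr7:142387909-142387936, minus strand: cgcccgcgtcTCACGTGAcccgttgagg
Ctsa, chr2:164833750-164833772, plus strand: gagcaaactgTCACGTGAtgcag
Gla, chrX:134601216-134601243, minus strand: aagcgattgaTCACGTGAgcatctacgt
Gla, chrX:134601183-134601210, minus strand: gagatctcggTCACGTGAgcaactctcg
Mcoln1, chr8:3500463-3500490, plus strand: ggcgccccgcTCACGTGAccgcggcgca
Atp6v1a, chr16:44139374-44139401, minus strand: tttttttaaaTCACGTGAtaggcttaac
In the GENCODE vM21 annotation the stretches of Ctsd, Ctsa and Mcoln1 overlap untranslated exons of transcripts of the same genes, that of Atp6v1a lies in its gene body outside any exon, and both of Gla overlap an untranslated exon of the neighbouring gene Hnrnph2. The remaining gene with the 8 letters was Atp6v0d1, where they span the start. A match describes these letters only and is no measure of Tfeb binding.

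The summed transcripts of the 37 genes were highest in the macrophage classes, with the infiltrating macrophage-like cells of the injured brain highest. Summed over the 37 genes, the level was 56858 CPM (56767 to 56949) in these cells, so that 5.69% of their UMIs came from these genes. Microglia-like cells held 37671 CPM in CT_brain and 47262 CPM in INJ_brain. Lyve1+ macrophage-like cells lay between 22644 and 28472 CPM across the 4 libraries, and Lyve1- macrophage-like cells, which are high in MHC class II, between 17425 and 23646 CPM.

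Ly6C low monocyte-like cells had 14935 CPM in CT_brain and 18529 CPM in INJ_brain, and Ly6C hi monocyte-like cells 14346 to 17037 CPM. The Ly6C low class numbered 44 cells in CT_dura and 37 in INJ_dura and was left out there. Conventional dendritic-like cells (cDC2) lay between 8532 and 9951 CPM and neutrophil-like cells between 4735 and 8504 CPM. T-like cells, which are not phagocytes and are set beside the others with free RNA of the droplets in view, had 2445 CPM in CT_brain, 3134 in CT_dura, 4424 in INJ_brain and 3241 in INJ_dura. Infiltrating cells made up 25.1% of the kept cells of INJ_brain and 56.4% of its UMIs from the 37 genes, whereas microglia-like cells of CT_brain were 10.9% of the cells and 33.2% of the UMIs. Over all kept cells the 37 genes took 1.29% of UMIs in CT_brain, 0.973% in CT_dura, 3.78% in INJ_brain and 1.39% in INJ_dura.

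**Figure D1:**
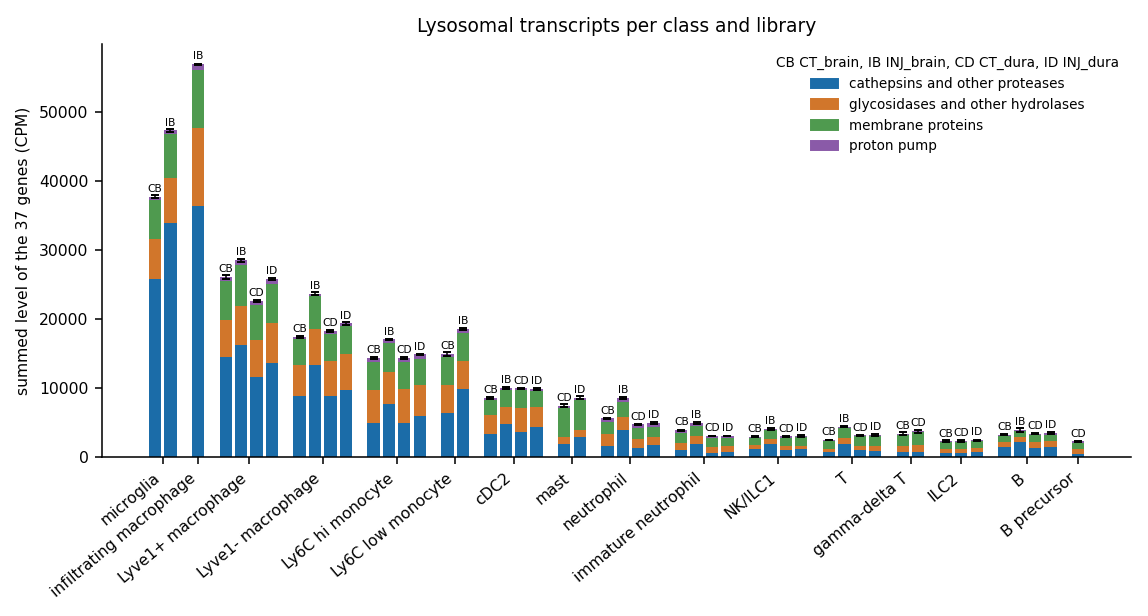
Summed level of the 37 genes (CPM) by class of cells on the horizontal axis, with 1 bar per library (CB CT_brain, IB INJ_brain, CD CT_dura, ID INJ_dura), colours for the 4 groups of genes and black bars for the exact 95% counting interval of the sum. Infiltrating macrophages reach 56858 CPM, microglia 37671 and 47262 CPM, and the highest lymphoid bar, T cells of INJ_brain, reaches 4424 CPM.

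The composition of the sum differed between classes. In infiltrating cells, Ctsd (20.5%), Ctsb (18.4%) and Psap (11.7%) together gave 50.6% of it. Ctsd, the main aspartic protease of the lysosome, led in microglia-like cells with 24.1% in CT_brain and 27.6% in INJ_brain. Ctsb, a cysteine protease, led in Lyve1+ cells of all 4 libraries with up to 16.1%, whereas Lyve1- cells were led by Ctss, the cysteine protease that processes the MHC class II invariant chain, in both brain libraries and by Psap, the precursor of the saposins that assist sphingolipid hydrolases, in both dura libraries. Psap led in Ly6C hi monocyte-like cells of each library, and Laptm5, a membrane protein of blood cells, led in T-like cells of 3 libraries, with Ctsd ahead of it at 16.3% against 16.1% in INJ_brain.

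Taken gene by gene, a macrophage class or microglia had the highest level for 29 of 37 genes in CT_brain, 26 in CT_dura, 35 in INJ_brain and 27 in INJ_dura. Infiltrating cells were highest for 20 genes of INJ_brain, among them Ctsb, Psap, Cd68 and Lamp1, while microglia-like cells kept the top for 9, among them Ctsd, Ctsl, Lgmn and Ctsz. In the dura, where infiltrating and microglia-like cells numbered 10 and 4 at most and were left out, Lyve1+ cells were highest for 21 genes in CT_dura and 23 in INJ_dura. The same counts over all genes are not given here. Some tops had intervals that overlapped those of a class of another kind. Laptm5 of INJ_brain was at 1439 CPM in microglia-like and 1414 CPM in Ly6C low monocyte-like cells. Ctsh of CT_brain was at 860 CPM in Lyve1- and 794 CPM in cDC2-like cells.

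Some genes were highest outside these classes. Cd63, a tetraspanin of late endosomes and of secretory granules, was highest in the mast-like cells of the dura, at 2598 CPM in CT_dura and 2691 CPM in INJ_dura, against 819 and 875 CPM in Lyve1+ cells. Mast-like cells also had 1199 and 2086 CPM of Ctsd, and Cd63 alone gave 35.0% and 31.3% of their sum. Npc2, which binds cholesterol inside the lysosome, was highest in Ly6C hi monocyte-like cells of CT_brain, CT_dura and INJ_dura (1439, 1270 and 1089 CPM).

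Atp6v1b2, a subunit of the cytosolic head of the pump, reached 187 CPM in Ly6C hi monocyte-like cells of CT_brain and 83.1 CPM in microglia-like cells of the same library. Neutrophil-like cells shared this level of pump transcripts: their 6 pump genes summed to 497 to 556 CPM, close to the 467 and 505 CPM of microglia-like cells, although their 11 proteases summed to 1288 to 3900 CPM against 25770 and 33893 CPM. Tfeb was low throughout, at 64.2 CPM at most in the brain libraries (Ly6C low monocyte-like cells of each) and 76.7 CPM at most in the dura (B-like cells of CT_dura). Gla, the α-galactosidase that cuts globosides, and Glb1, the β-galactosidase, were highest in group 2 innate lymphoid-like cells of CT_brain, at 92.4 and 72.1 CPM, with intervals that overlapped those of the next class. Glb1 was also highest in this class in CT_dura, at 88.4 CPM with overlapping intervals. In INJ_dura it was highest there at 97.5 CPM, against 64.9 CPM in Lyve1+ cells, without overlap.

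In the mm10 annotation Ctsd lies at chr7:142375911-142388038 on the minus strand, Ctsb at chr14:63122462-63145923 and Psap at chr10:60277627-60302597 on the plus strand, and Ctsk (chr3:95499256-95509362) and Ctss (chr3:95526786-95556403) lie next to each other. Ctsk, the collagen-cutting cathepsin of osteoclasts, and Atp6v0d2, a pump subunit best known from the same cells, were the rarest of the 37. Ctsk stayed at or under 3.84 CPM in every class except the infiltrating cells, which had 12.7 CPM. Atp6v0d2 was at or under 5.01 CPM in every class. Atp6v0c reached 11.9 CPM at most. The annotation holds processed pseudogene copies of Atp6v0c and Cd63, between which reads can be split or lost, so the levels of these 2 genes are uncertain.

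Lyve1+ cells of the control brain and the control dura differed by less than 2-fold in each well-counted gene, with more of the genes on the brain side. Over the 36 genes with at least 10 UMIs, the median log2 ratio of CT_dura (326 cells) over CT_brain (100 cells) was -0.12, and that of all genes was 0.08. Of the 33 with at least 100 UMIs, 0 were 2-fold higher and 0 were 2-fold lower in the dura, against 4.42% and 1.27% of all genes tested, so that these counts are near those of all genes. The interval was below 0 for 17 of the 36 genes and above 0 for 5, without a share of all genes to set beside these counts. The proteases were on the brain side, with a median of -0.31 and the intervals of 9 of 10 below 0. Ctsd was at 1961 CPM in the brain and 1266 CPM in the dura, a log2 ratio of -0.63 (-0.70 to -0.56), and Cd68, a glycoprotein of macrophage endosomes, was at 764 and 510 CPM, or -0.58 (-0.70 to -0.47). Scarb2, the receptor that carries glucocerebrosidase to lysosomes, was on the dura side at 98.2 and 147 CPM, or 0.59 (0.29 to 0.90). The dissociation stress list of 12 immediate early and heat shock genes was at 26437 CPM in the brain cells and 19810 CPM in the dura cells, and its part in these differences was not tested.

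How the resident phagocytes of the brain stood 3 days after the injury was read from microglia-like cells, in 528 cells of INJ_brain against 392 of CT_brain. Only cells past the cut of the microglia marker list are in this class, and their median score on it was 0.856 in CT_brain and 0.731 in INJ_brain. No class was assigned to 395 kept cells of CT_brain and 800 of INJ_brain. Whether microglia that fell below the cut differ from those kept was not tested. The median of 35 genes was 0.18, while that of all genes was -0.13. Of the 34 with at least 100 UMIs, 0 were 2-fold higher and 0 were 2-fold lower, against 3.62% and 2.12% of all genes tested. The interval lay above 0 for 22 of 35 genes and below 0 for 7, and the share of all genes with such intervals is not given here. With clusters in place of gates, 2 of 36 genes were at least 2-fold higher and 2 at least 2-fold lower.

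The proteases stood highest among the groups of genes in microglia, with a median of 0.49 against 0.24 for hydrolases, 0.01 for membrane proteins and 0.06 for the pump. Ctsl, a cysteine protease, was at 1465 CPM in CT_brain and 2787 CPM in INJ_brain, or 0.93 (0.89 to 0.97). Ctsb was at 2633 and 4238 CPM, or 0.69 (0.66 to 0.72). Ctsd, at 9095 and 13031 CPM, was the most abundant of the 37 in both. Against this, Ctss was at 4951 CPM in CT_brain and 4240 CPM in INJ_brain, or -0.22 (-0.25 to -0.20), although with each cell thinned to 2000 UMIs its ratio was 0.09.

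Cd63 came next to Ctsl with 637 and 1204 CPM, or 0.92 (0.86 to 0.98), and Gusb, the β-glucuronidase, had 263 and 446 CPM, or 0.76 (0.66 to 0.86). Genes on the control side were Man2b1, an α-mannosidase, at 789 and 621 CPM, Laptm5 at 1742 and 1439 CPM, Tfeb at 38.2 and 26.5 CPM and Atp6v0c at 11.9 and 6.28 CPM. The log2 ratio of Tfeb was -0.53 (-0.84 to -0.22). The stress list was at 30014 CPM in the microglia-like cells of CT_brain and 15908 CPM in those of INJ_brain, with all 12 genes detected in each, and its part in these ratios was not tested. Median depths were 9482 and 8823 UMIs per cell.

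**Figure D2:**
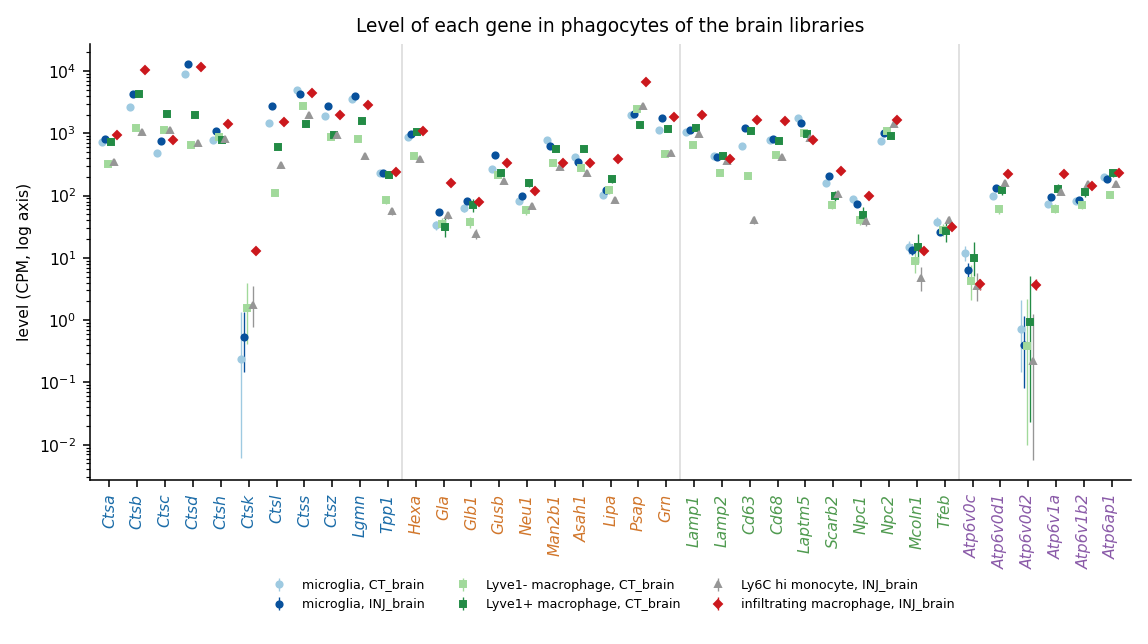
Level of each of the 37 genes (CPM, log axis) in 6 groups of phagocytes of the brain libraries, with vertical lines for exact 95% counting intervals and gene names coloured by group (blue proteases, orange hydrolases, green membrane proteins, purple pump). Infiltrating macrophages (red diamonds) lie above both macrophage classes of CT_brain (green squares) for 28 genes, and Ctsk at 12.7 CPM stands apart from all other groups. The share of all genes above both classes is not given.

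Infiltrating macrophage-like cells, gated on Arg1, Fn1, Spp1, Thbs1, Vegfa, Ecm1 and Inhba, were set against the macrophages present without injury. The 1101 infiltrating cells of INJ_brain had 19 of 37 genes at least 2-fold higher than the 288 Lyve1+ and Lyve1- cells of CT_brain, and 0 at least 2-fold lower, against 7.73% and 12.1% of all genes tested. The median log2 ratio was 1.08 and that of all genes was -0.08. The interval was above 0 for 30 genes and below 0 for 4, without a share of all genes to set beside these counts. Each group of genes took part, with 7 of 11 proteases, 4 of 10 hydrolases, 5 of 10 membrane proteins and 3 of 6 pump genes past 2-fold.

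Ctsd stood out among the abundant proteases of the infiltrating cells, with 11684 CPM against 1961 in Lyve1+ and 660 CPM in Lyve1- cells of CT_brain. Its ratio to both classes together was 3.48 (3.44 to 3.53), an 11.2-fold difference. Ctsl had 1493 CPM against 602 and 112 CPM, or 2.54 (2.45 to 2.63). Ctsb had 10449 CPM against 4208 and 1207 CPM, or 2.32 (2.29 to 2.35). All 3 were above both sham classes, with Lyve1+ cells the nearer.

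Ctsk was found in 14.1% of infiltrating cells, at 12.7 CPM, whereas Lyve1+ cells of CT_brain had 0 UMIs of it, which allows up to 3.39 CPM by the exact interval, and Lyve1- cells 1.54 CPM. The ratio of 3.55 (2.18 to 5.44) rests on few sham UMIs. Thinned to 2000 UMIs per cell, the share of infiltrating cells with Ctsk was 1.73%, and that of T-like cells in the same library was 0.658% both unthinned and thinned. Median depths were 23030 UMIs in infiltrating cells and 5892 in T-like cells. Lgmn, the asparaginyl endopeptidase that activates other cathepsins, had 2851 CPM against 1600 and 805 CPM, or 1.45, and was likewise above both.

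Ctsc, the dipeptidyl peptidase that activates granule serine proteases, was the protease on the other side. It had 792 CPM in infiltrating cells against 2073 in Lyve1+ and 1146 in Lyve1- cells, or -0.84 (-0.89 to -0.80).

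Gla had the largest ratio of the hydrolases, with 157 CPM against 31.2 and 35.1 CPM, or 2.20 (1.95 to 2.47). Psap, with 6640 CPM against 1347 and 2479 CPM, had a ratio of 1.63 (1.60 to 1.66). Lipa, the acid lipase that releases cholesterol from its esters, had 391 CPM against 182 and 121 CPM, or 1.49 (1.36 to 1.62), and Grn, the progranulin precursor, 1831 CPM against 1174 and 463 CPM, or 1.44. Those 4 were the hydrolases past 2-fold, all on the infiltrating side. Man2b1 and Asah1, the acid ceramidase, were slightly lower, at -0.24 (-0.32 to -0.15) and -0.13 (-0.21 to -0.04).

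Of the membrane proteins, Cd63 had 1654 CPM against 1072 and 204 CPM, or 1.84 (1.77 to 1.91). Scarb2, Cd68, Lamp1 and Npc1 were past 2-fold as well, with ratios from 1.66 to 1.21. Lamp2, a lysosomal membrane glycoprotein like Lamp1, had 385 CPM against 435 and 235 CPM, or 0.39 (0.30 to 0.48), where Lamp1 had 1993 CPM against 1226 and 653 CPM, or 1.28 (1.22 to 1.33). Laptm5 was lower at 772 CPM against 981 and 1030 CPM, or -0.39 (-0.45 to -0.34). Tfeb, at 31.0 CPM against 26.6 and 28.2 CPM, and the calcium channel gene Mcoln1, at 12.7 CPM against 14.7 and 8.88 CPM, had intervals that included 0.

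Among pump genes, Atp6v0d2 had 3.73 CPM in infiltrating cells, 0.918 CPM in Lyve1+ and 0.386 CPM in Lyve1- cells, a ratio of 2.78 (0.89 to 5.85) on 2 sham UMIs, which was -0.19 with no filter on cells. Atp6v0d1, its widely expressed relative in the membrane sector, had 226 CPM against 124 and 60.6 CPM, or 1.51 (1.34 to 1.68). Atp6v1a, the catalytic subunit, had 221 CPM against 128 and 61.7 CPM, or 1.44 (1.28 to 1.62). Levels of Atp6v0d1 and Atp6v1a in infiltrating cells exceeded those of both sham classes.

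The sham side is a mixture of 2 unlike classes, which bears on the counts. Infiltrating cells were at least 2-fold above Lyve1+ cells for 13 of 37 genes and 2-fold below them for 2, Ctsc and Atp6v0c, against 9.45% and 19.4% of all genes tested. They were at least 2-fold above Lyve1- cells for 25 and below them for 0, against 10.7% and 9.11% of all genes tested, and above both classes for 12. The 12 were Ctsb, Ctsd, Ctsk, Ctsl, Ctsz, Gla, Lipa, Psap, Cd68, Scarb2, Npc1 and Atp6v0d2. For all genes, the share past 2-fold over both classes is not given here. The genes whose promoter windows held TCACGTGA had a median of 1.48 in this comparison, with 5 of 6 past 2-fold (Ctsd, Gla, Atp6v0d1, Atp6v1a and Ctsa, not Mcoln1), and the 25 matched genes without it a median of 0.92, with 11 past 2-fold. With injury the order was the reverse in neutrophil-like cells of the brain, at 0.32 with and 0.50 without. There 1 of 6 against 9 of 24 were past 2-fold. The order was also the reverse in neutrophil-like cells (-0.14 and -0.02) and Lyve1+ cells (0.08 and 0.11) of the dura. In every other comparison read this way, the median with the letters was the higher. It was 0.38 against 0.16 in microglia with injury and 0.48 against 0.09 in infiltrating cells over microglia. For the Ly6C hi class with injury the medians were close, at 0.23 and 0.22. At most the same 6 genes stand for the letters in every comparison, and the same split of all genes is not given here. Ctsb, Npc1 and Atp6v0d2, past 2-fold over the sham macrophages, had no window and stand on neither side of the split. The stress list was at 7850 CPM in infiltrating cells against 26437 CPM and 21510 CPM in the sham classes, and its part was not tested. The median depth of infiltrating cells, 23030 UMIs, was above the 9210 and 12448 UMIs of the sham classes.

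Within INJ_brain, where the library is the same on both sides, infiltrating cells were next set against 278 Ly6C hi monocyte-like cells. The median ratio was 1.24. At least 2-fold higher were 22 of 37 genes and 0 were 2-fold lower, against 11.4% and 9.36% of all genes tested. Proteases were past 2-fold in 9 of 11 cases, hydrolases in 6 of 10, membrane proteins in 6 of 10 and pump genes in 1 of 6, with medians of 2.11, 1.38, 1.14 and 0.53.

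Cd63 gave the widest gap, 1654 CPM in infiltrating and 40.3 CPM in monocyte-like cells, or 5.36 (5.15 to 5.58), which is 41.1-fold. Ctsd had 11684 and 695 CPM, or 4.07 (4.02 to 4.12), and Ctsb 10449 and 1031 CPM, or 3.34 (3.30 to 3.38). Psap, the leading gene of the monocyte-like cells at 2767 CPM, still differed by 1.26 (1.24 to 1.29). Ctsk and Atp6v0d2 were past 2-fold too, at 2.84 (1.85 to 4.06) and 4.07 (1.56 to 9.39), the latter on 1 UMI of the monocytes.

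Of the pump genes, Atp6v1a came nearest to 2-fold after Atp6v0d2, with 221 CPM in infiltrating and 116 CPM in monocyte-like cells, or 0.93 (0.80 to 1.06), and 4 of the 6 intervals were above 0. Atp6v1b2 had 144 CPM in infiltrating and 155 CPM in monocyte-like cells, with an interval of -0.22 to 0.02, and Atp6v0d1 226 and 161 CPM, or 0.49 (0.38 to 0.60). Ctsc, Tfeb and Laptm5 were on the monocyte side, at -0.50 (-0.54 to -0.45), -0.41 (-0.64 to -0.17) and -0.11 (-0.16 to -0.06). Infiltrating cells had a median of 23030 UMIs and monocyte-like cells 14498.

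Against the 528 microglia-like cells of the same library, infiltrating cells were close in most genes, with a median of 0.23 where all genes had -0.18. They had 7 of 37 genes at least 2-fold higher and 0 at least 2-fold lower, against 7.7% and 13.8% of all genes tested. The 7 were Ctsk at 4.58 (3.21 to 6.46), Atp6v0d2 at 3.22 (1.63 to 5.52), Psap at 1.70 (1.68 to 1.72), Lipa at 1.69 (1.59 to 1.79), Gla at 1.51 (1.36 to 1.66), Ctsb at 1.30 (1.29 to 1.32) and Atp6v1a at 1.22 (1.10 to 1.33).

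Among the hydrolases of the list, Psap was at 6640 CPM in infiltrating and 2045 CPM in microglia-like cells and Lipa at 391 and 121 CPM, while Glb1, at 79.2 and 82.8 CPM, and Asah1, at 333 and 345 CPM, had intervals that included 0. Ctsd went slightly the other way at 11684 and 13031 CPM, or -0.16 (-0.17 to -0.15). Ctsl, at 1493 and 2787 CPM, Laptm5, at 772 and 1439 CPM, and Man2b1, at 338 and 621 CPM, were each lower in infiltrating cells, with ratios of -0.90 (-0.92 to -0.88), -0.90 (-0.93 to -0.86) and -0.88 (-0.93 to -0.83). Atp6v0d1, Atp6v1b2, Lamp1, Cd68 and Npc2 were 1.60 to 1.93 times higher in infiltrating cells. The infiltrating cells serve in all 3 of these comparisons, which are therefore not independent.

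**Figure D3:**
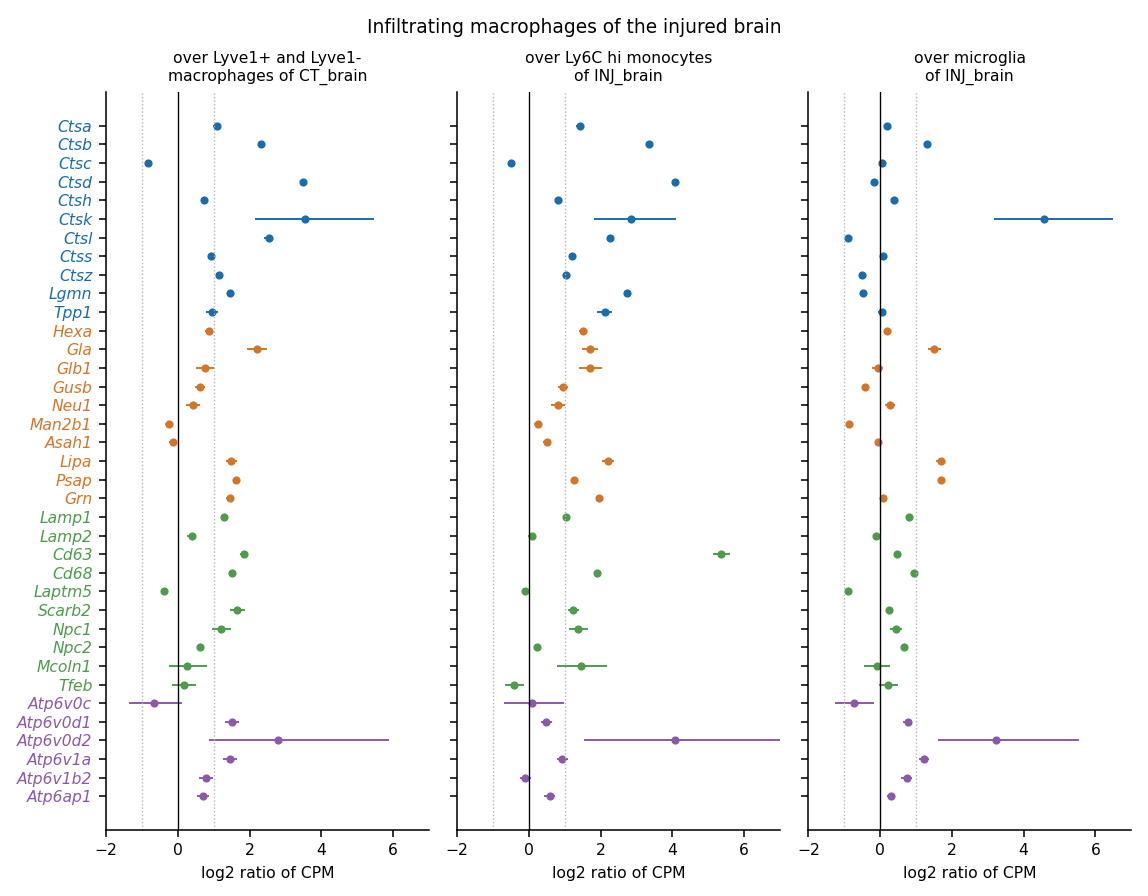
Log2 ratio of CPM of infiltrating macrophages of INJ_brain over the macrophages of CT_brain (left), the Ly6C hi monocytes of INJ_brain (middle) and the microglia of INJ_brain (right), 1 row per gene, with horizontal lines for exact 95% counting intervals and dotted lines at 2-fold. Past 2-fold on the higher side lie 19, 22 and 7 genes and on the lower side 0 in each panel. The interval of Atp6v0d2 in the middle panel runs beyond the axis.

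Lyve1- macrophage-like cells of the brain, 223 in INJ_brain and 188 in CT_brain, had a median of 0.35. Of the 33 genes with at least 100 UMIs, 3 were at least 2-fold higher and 0 at least 2-fold lower, against 1.69% and 1.09% of all genes tested. The 3 were Ctsd at 660 CPM in CT_brain and 2092 CPM in INJ_brain, or 1.66 (1.59 to 1.74), Ctsl at 112 and 298 CPM, or 1.41 (1.22 to 1.61), and Cd63 at 204 and 457 CPM, or 1.16 (1.02 to 1.31). Ctsb followed at 1207 and 2177 CPM, or 0.85 (0.79 to 0.91). Ctss, their most abundant member, was at 2784 and 3477 CPM, or 0.32 (0.28 to 0.36). Where cells were classed by clusters instead of gates, the median was -0.01 and 0 genes were past 2-fold, so these values rest on the gate.

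Lyve1+ macrophage-like cells of the brain differed less, with a median of 0.08 over 35 genes in 151 cells of INJ_brain and 100 of CT_brain. Of 31 genes with at least 100 UMIs, 0 were 2-fold higher and 0 were 2-fold lower, against 0.865% and 0.734% of all genes tested. Ctsd was the clearest, at 1961 and 2870 CPM, or 0.55 (0.47 to 0.62). Ctsb, their leading gene, had 4208 and 4476 CPM, or 0.09 (0.04 to 0.14), and Ctsc 2073 and 2090 CPM, or 0.01 (-0.07 to 0.09). Asah1 and Neu1, the sialidase, were lower at -0.37 (-0.53 to -0.21) and -0.40 (-0.71 to -0.10). The stress list hardly differed here, at 26437 and 26261 CPM, whereas it was at 21510 and 14004 CPM in the Lyve1- cells.

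In the dura, Ctsd was the gene over 100 CPM with the largest ratio of injured to control in both macrophage classes, and few genes of any kind were past 2-fold. Lyve1+ cells, 532 in INJ_dura and 326 in CT_dura, had a median of 0.12. Of 35 genes with at least 100 UMIs, 0 were at least 2-fold higher and 0 at least 2-fold lower, against 0.663% and 0.545% of all genes tested. The interval was above 0 for 21 of 37 genes and below 0 for 4, without a share of all genes to set beside these counts. Ctsd was at 1266 and 1952 CPM, or 0.63 (0.58 to 0.67), Ctsl at 470 and 619 CPM, or 0.40 (0.32 to 0.47), and Ctsb, the most abundant, at 3395 and 4108 CPM, or 0.27 (0.25 to 0.30). Ctsk, with under 100 UMIs, was past 2-fold at 0.727 and 3.38 CPM, or 2.22 (0.53 to 4.58). Tfeb was lower at 28.8 and 22.1 CPM, or -0.38 (-0.72 to -0.04).

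Lyve1- cells of the dura, 203 in INJ_dura and 139 in CT_dura, had a median of 0.05, with 0 of 33 genes 2-fold higher and 0 of 33 2-fold lower, against 0.483% and 0.286% of all genes tested. Ctsd again had the largest ratio among genes over 100 CPM, at 539 and 742 CPM, or 0.46 (0.36 to 0.57). Ctss and Psap, their most abundant members, were at 2529 and 2737 CPM and at 2824 and 2924 CPM. Cd68 was lower at 468 and 385 CPM, or -0.28 (-0.41 to -0.16). For these 2 classes of the dura the stress list was at 19810 and 17342 CPM in Lyve1+ and 16411 and 14707 CPM in Lyve1- cells of CT_dura and INJ_dura.

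Ctsd was thus on the injured side in each of the 5 comparisons of macrophages or microglia, with log2 ratios of 0.52 in microglia, 0.55 and 1.66 in Lyve1+ and Lyve1- cells of the brain and 0.63 and 0.46 in those of the dura, all with intervals above 0. Ctsl was as well, from 0.26 to 1.41. With clusters in place of gates, 0 genes were past 2-fold in the Lyve1- cells of the brain. T-like cells had 299 CPM of Ctsd in CT_brain and 720 CPM in INJ_brain, and 393 and 382 CPM in CT_dura and INJ_dura. Their Ctsl was at 17.1 and 64.2 CPM in the brain and 17.6 and 15.3 CPM in the dura. The part of free RNA in the ratios of Ctsd and Ctsl was not tested.

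Brain monocyte-like cells of the Ly6C hi class, 278 in INJ_brain and 236 in CT_brain, had a median of 0.21. Of 33 genes with at least 100 UMIs, 4 were at least 2-fold higher and 0 at least 2-fold lower, against 2.45% and 1.37% of all genes tested. Lgmn was at 101 CPM in CT_brain and 429 CPM in INJ_brain, or 2.09 (1.94 to 2.26), Ctsd at 194 and 695 CPM, or 1.84 (1.72 to 1.95), and Ctsl at 99.5 and 310 CPM, or 1.64 (1.48 to 1.81). Psap, the most abundant, was slightly lower at 3129 and 2767 CPM, or -0.18 (-0.21 to -0.14), and Npc2 was at 1439 and 1390 CPM.

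The 4th gene, Cd63, was at 2.85 and 40.3 CPM, or 3.82 (2.95 to 4.85). T-like cells of the same libraries had 3.81 and 49.6 CPM of it, and the share of cells with a UMI of Cd63 went from 3.39% to 32.0% in monocyte-like and from 3.07% to 15.1% in T-like cells. Thinned to 2000 UMIs these shares were 0 and 4.68% in monocyte-like and 0.46% and 9.21% in T-like cells, and the part of free RNA in the Cd63 values was not tested. For Lgmn, Ctsd and Ctsl, T-like cells of INJ_brain had 118, 720 and 64.2 CPM against 429, 695 and 310 CPM in monocyte-like cells, so that Ctsd was no higher there than in T-like cells. The stress list was at 15273 CPM in CT_brain and 7733 CPM in INJ_brain monocyte-like cells, and its part was not tested.

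Neutrophil-like cells of the brain had more of the 37 genes past 2-fold between the brain libraries than any macrophage or monocyte class. In 237 cells of INJ_brain and 353 of CT_brain the median was 0.51 over 35 genes, of which 11 were past 2-fold. Of the 31 with at least 100 UMIs, 9 were at least 2-fold higher and 0 at least 2-fold lower, against 3.42% and 2.3% of all genes tested. The proteases held 6 of the 11, with a median of 1.28, against 0.22 for the pump.

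Lgmn was at 24.5 CPM in CT_brain and 212 CPM in INJ_brain, or 3.11 (2.68 to 3.58). Ctss was at 138 and 529 CPM, or 1.94 (1.74 to 2.15), Ctsb at 193 and 711 CPM, or 1.88 (1.71 to 2.05), and Ctsl at 89.6 and 261 CPM, or 1.54 (1.28 to 1.81). Glb1, with 1 UMI in CT_brain, was at 0.5 and 6.27 CPM, or 3.65 (0.80 to 9.10). Ctsd, their most abundant member in INJ_brain, was at 779 and 1400 CPM, or 0.85 (0.75 to 0.94), while Psap and Laptm5 were at 877 and 823 CPM and at 759 and 761 CPM.

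T-like cells of the brain libraries, set beside them because they are not phagocytes, had a median of 0.68, with 11 of 35 genes at least 2-fold higher and 1 at least 2-fold lower. Of the 29 with at least 100 UMIs, 9 were higher and 0 lower, against 1.36% and 1.31% of all genes tested in T-like cells. Ctsb was at 105 and 388 CPM in them, or 1.89, Lgmn at 15.4 and 118 CPM, or 2.93, Ctsl at 17.1 and 64.2 CPM, or 1.91, and Ctss at 96.5 and 215 CPM, or 1.16. The neutrophil-like cells of INJ_brain had 711, 212, 261 and 529 CPM of these 4 genes. The share of cells with a UMI of Ctsb went from 42.8% to 79.7% in neutrophil-like cells, or 24.1% to 54.7% thinned, and from 48.0% to 76.3% in T-like cells, or 17.3% to 40.1% thinned.

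Median depths were 4109 and 4480 UMIs in neutrophil-like and 7130 and 5892 UMIs in T-like cells. Of 20 genes with at least 100 UMIs in the class of NK-like and ILC1-like cells, 3 were at least 2-fold higher and 0 lower, against 0.64% and 0.591% of all genes tested. In Ly6C low monocyte-like cells 3 of 30 were higher, namely Ctsd, Ctsl and Lgmn, and 0 lower, against 1.65% and 0.528%. The part of free RNA in the neutrophil values was not tested. Thinned to 2000 UMIs per cell, 7 and not 11 genes were past 2-fold in neutrophil-like cells, and with clusters in place of gates 5.

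**Figure D4:**
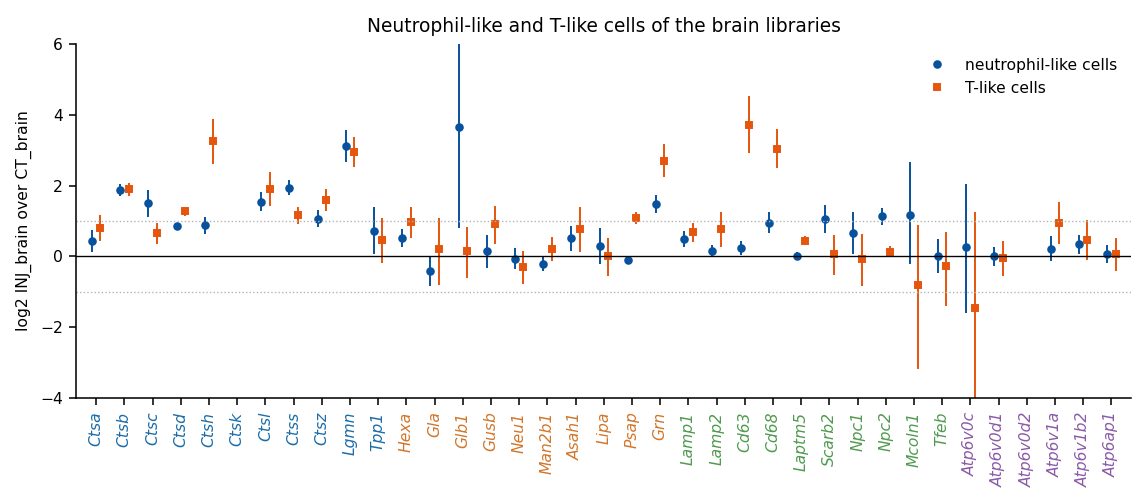
Log2 ratio of CPM of INJ_brain over CT_brain for each gene in neutrophil-like cells (blue circles) and T-like cells (orange squares), with vertical lines for exact 95% counting intervals and dotted lines at 2-fold. Each class has 11 genes past 2-fold on the higher side, Ctsb and Lgmn lie side by side in both, and the ratios of Cd63, Cd68 and Ctsh are larger in T-like cells. Genes with under 10 UMIs are left out.

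Neutrophil-like cells of the dura, 198 in INJ_dura and 385 in CT_dura, had a median of -0.02 where all genes had -0.16. Of 28 genes with at least 100 UMIs, 1 was at least 2-fold higher and 0 were 2-fold lower, against 1.21% and 1.98% of all genes tested. It was Ctsc, at 32.4 and 68.2 CPM, or 1.07 (0.63 to 1.52). Ctss at 57.4 and 107 CPM and Ctsb at 108 and 166 CPM were higher by 0.90 (0.56 to 1.25) and 0.62 (0.36 to 0.87), and Ctsd, the most abundant, by 0.34 (0.24 to 0.45). Gusb and Neu1 were lower, at -0.83 (-1.44 to -0.24) and -0.70 (-1.08 to -0.34). The median depth was 5177 UMIs in CT_dura and 7711 in INJ_dura. With doublets kept, 5 and not 1 were past 2-fold on the higher side.

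**Figure D5:**
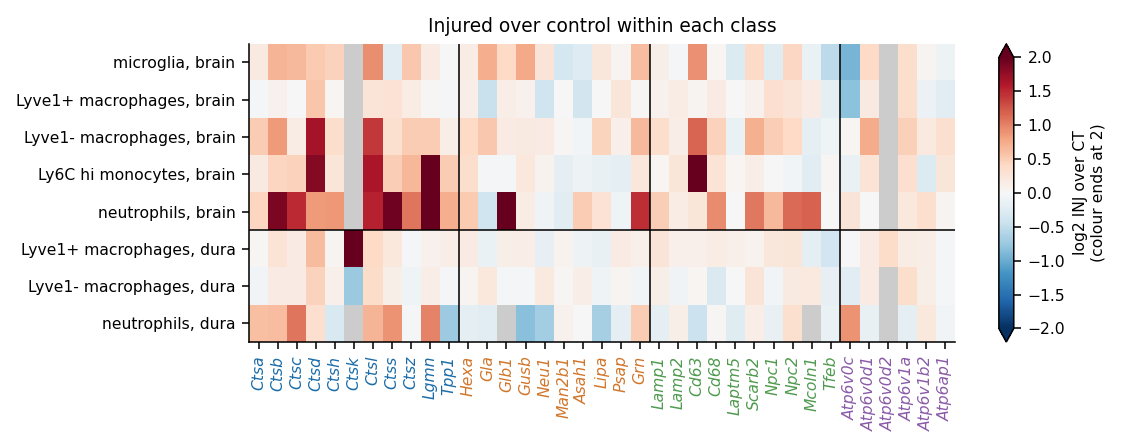
Log2 ratio of CPM of the injured over the control library for each gene (columns, grouped as proteases, hydrolases, membrane proteins and pump) within 8 classes of cells (rows), red for higher in the injured library and blue for lower, with colours ending at 2 and grey for under 10 UMIs. For Lyve1- macrophages and neutrophils the brain rows carry deeper colours than the dura rows. Lyve1+ macrophages do not follow this, with medians of 0.08 in the brain and 0.12 in the dura. Ctsd and Ctsl are red in all 8 rows, and neutrophils of the brain have the most genes past 2-fold, 11.

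Another 63 genes, of the lysosome or related to it, were followed for comparison. They include 4 sorting genes, 3 transcription factors and 2 inhibitors of cathepsins. In infiltrating cells against the macrophages of CT_brain, 13 of 63 were at least 2-fold higher and 7 at least 2-fold lower, with a median of 0.28. The shares of all genes tested were 7.73% and 12.1%. This wider set was more divided than the 37, and its lower count was near the share of all genes. Counts of the 63 take genes with at least 10 UMIs, and the shares of all genes those with at least 100. Igf2r, the mannose-6-phosphate receptor that sorts hydrolases, was at 1.36 CPM in the sham and 22.7 CPM in the infiltrating cells, or 4.06 (2.83 to 5.69), Galns, a sulfatase, at 7.06 and 68.2 CPM, or 3.27 (2.72 to 3.89), and Acp5, the tartrate-resistant acid phosphatase, at 27.4 and 257 CPM, or 3.23 (2.94 to 3.53). Lower were the cathepsins Ctsf at -3.82 (-4.22 to -3.43) and Ctsw at -2.89 (-3.64 to -2.15) and the sulfatase Arsb at -2.17 (-2.43 to -1.91).

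Acp5 was also higher in microglia-like cells, at 1.19 and 10.0 CPM, or 3.07 (1.78 to 4.73). There 5 of the 63 genes were 2-fold higher and 1 was 2-fold lower, against 3.62% and 2.12% of all genes tested. The lower gene was the protease inhibitor Cst3 at -1.07 (-1.08 to -1.06). Within INJ_brain, 7 of the 63 were at least 2-fold higher and 14 at least 2-fold lower in infiltrating than in microglia-like cells. The shares of all genes tested were 7.7% and 13.8%. Acp5 was at 4.68 (4.35 to 5.03) on one side, with Ctsf at -5.74 (-6.08 to -5.42), Arsb and Cst3 on the other. Over Ly6C hi monocyte-like cells 25 were at least 2-fold higher and 1 lower, against 11.4% and 9.36% of all genes tested. The lower gene was Tfec, a relative of Tfeb, at -1.16 (-1.54 to -0.76). Neutrophil-like cells of the brain had 9 of 60 higher and 3 lower, against 3.42% and 2.3% of all genes tested. In the macrophage classes of the dura no more than 1 was higher and 2 were lower. The shares of all genes tested were 0.663% and 0.545% in Lyve1+ and 0.483% and 0.286% in Lyve1- cells.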

How the data were processed

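The authors deposited 1 matrix per library with natural log values, ln of 1 plus a gene's UMIs over the UMIs of its cell times 10000. Per the labels and the study's methods, reads were mapped with Cell Ranger 3.1.0 to mm10 and normalized in Seurat 3.1.0, and genes seen in under 3 cells of a library are not listed. The design had assumed UMI counts. Undoing the log gave whole multiples of each cell's smallest value for 100.0% of values within 1e-06, which were taken as UMIs. Library totals were 49003977 (CT_brain), 54749012 (CT_dura), 115154317 (INJ_brain) and 55887697 (INJ_dura) UMIs. A gene not listed counted 0.

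The filter on cells asked for over 1000 and under 6000 genes and a mitochondrial share of no more than 7%. The automatic Scrublet threshold marked 0 to 0.133% of cells, so the highest scores, 0.8% per 1000 barcodes, were removed (75 to 218 cells per library). Each cell was scored on 33 marker lists as in the design. Cells past the cut of a general macrophage list were gated first, as microglia, Lyve1+, infiltrating or Lyve1- in that order. The remaining cells took the class with the highest score past the cut among the other lists. In each library cDC2-like cells scored higher on the Lyve1- list than on their own, at 0.882 and 0.625 in CT_brain. Classes with under 50 cells in a library were left out. UMIs were summed per class, and ratios with exact intervals were computed for genes with at least 10 UMIs in both sides together. Shares for all genes use at least 100 UMIs, and called means past 2-fold.

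The genes named in a comparison were those past 2-fold with an interval off 0, at most 5 per direction, and the 3 most abundant, and others were added after their values were seen. The 37 genes, the lists and the comparisons were chosen with earlier results of these data known. Alternatives kept doublets, dropped the filter on cells, thinned cells to 2000 UMIs, averaged over cells, used a stricter gate, clusters, a floor of 50 UMIs or ratios centred on all genes. Positions are of GENCODE vM21, and promoter windows of RefSeq on GRCm38.p6. Scripts used Python 3.11.15, numpy 2.4.6, scipy 1.17.1, pandas 2.3.3, scanpy 1.11.5, leidenalg 0.10.2 and matplotlib 3.10.9, and the ratio intervals were tested on simulated data.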

Additional observations from a re-analysis of the deposited data

Results flagged for a closer look

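Ctsh, a cysteine protease, went opposite ways with injury in the neutrophil-like cells of the brain and of the dura. In the brain it was at 129 CPM in CT_brain and 237 CPM in INJ_brain, a log2 ratio of 0.87 (0.64 to 1.11), and in the dura at 132 CPM in CT_dura and 107 CPM in INJ_dura, or -0.30 (-0.58 to -0.02). The ratios differ by 1.17. The median of all genes was -0.10 in the brain and -0.16 in the dura, so the dura ratio lay near that of all genes. With 1 library per group this difference was not tested. T-like cells of the brain had 6.47 CPM of Ctsh in CT_brain and 61.2 CPM in INJ_brain.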

How the results depend on the processing

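Of the 96 medians over the 37 genes under the 8 alternatives, 88 stayed within the median interval, and 4 had the other sign. Of these 4, 3 belong to medians near 0: Lyve1+ macrophages of the brain (0.08) were at -0.0048 thinned, and neutrophils of the dura (-0.02) at 0.20 with doublets kept and 0.14 centred. The median of infiltrating over sham macrophages, 1.08, was 0.85 with clusters and 1.17 centred on all genes. Over Ly6C hi monocytes, 1.24, it was 0.99 thinned to 2000 UMIs, 1.29 with the stricter gate and 1.31 centred. Over microglia, 0.23, it was 0.15 with clusters and 0.41 centred. The median of Lyve1- macrophages of the brain, 0.35, was -0.0060 with clusters, where 0 and not 3 genes were past 2-fold, and Cd63 in them was -0.055. With no filter on cells, 1 and not 3 were past 2-fold, and Atp6v0d2 in infiltrating over sham macrophages was -0.19. The cause was not tested. Of 3384 values of single genes, 2676 stayed close, 706 moved and 2 changed direction. Counts past 2-fold shifted by over 1.5 times in other places. Microglia had 2 and not 0 higher with no filter on cells, with clusters and centred, and 1 lower thinned and 2 lower with clusters. Infiltrating cells had 1 gene lower than monocytes thinned, and against microglia 2 lower thinned, 2 averaged over cells and 1 with clusters, where the count had been 0. Neutrophils of the brain had 7 higher thinned and 5 with clusters in place of 11, and 1 lower thinned. Neutrophils of the dura had 5 higher with doublets kept, 4 centred and 0 with the stricter gate or clusters in place of 1, and 1 lower thinned, averaged over cells or with the stricter gate. Lyve1+ macrophages of the dura had 0 higher in place of 1 thinned or at 50 UMIs, and those of the brain 1 lower with no filter on cells. Lyve1+ macrophages of CT_dura over CT_brain had 0 higher in place of 1 with no filter, clusters or 50 UMIs, and 1 lower with no filter. No paired analysis was possible because each group is 1 library and the labels give no replicate numbers. Depth limits Ctsk, Atp6v0d2, Atp6v0c and Mcoln1, which were at 17.9 CPM or less in every class, and intervals cover counting error only.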
